A study of Homo sapiens with 4 samples.

Results

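A set of 10 immediate early genes was examined in BE(2)C cells, a human neuroblastoma cell line in which MYCN is amplified. They are the AP-1 genes FOS, FOSB, JUN, JUNB and JUND, the zinc finger genes EGR1, EGR2 and EGR3, and IER2 and NR4A1. The 10 genes were taken by their symbols, and all 10 are listed among the 26364 gene rows of each sample. RNA was sequenced from 4 samples. The 2 Ctrl samples received a non-targeting control siRNA and the 2 MYCN KD samples received siRNA against MYCN. Both groups were exposed to siRNA, given in the labels as 80 nM, and Lipofectamine 2000 in Optimem for 6 h, and RNA was extracted on the next day. The methods describe an addition of serum-containing medium after that exposure and give a lower final siRNA concentration. The controls therefore carry the transfection and the serum addition too, and no untransfected sample was analysed here. Levels are RPKM, read counts scaled to the length of the gene and to the depth of the library, which the authors computed after normalization, so that levels of different genes can be compared per length.

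Immediate early genes are switched on within minutes of a signal, before any new protein is made, and their transcripts are usually short lived. Signals reach them through MAP kinases, the factor SRF with its ELK partners, and CREB. FOS and JUN proteins pair through leucine zippers as the AP-1 factor. JUN proteins can pair among themselves, whereas FOS proteins need a JUN partner. EGR proteins bind GC-rich sites through zinc fingers and are held in check by the corepressors NAB1 and NAB2. NR4A1 is an orphan nuclear receptor, and IER2 encodes a nuclear protein. In neuronal and neural crest cells these genes are best known as early responders to growth factors and depolarization.

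The reads behind the RPKM values could be recovered as whole numbers, and their totals lay between 29055819 and 34142988 per sample. The target of the siRNA, MYCN, had 1067.9 and 1073.0 RPKM in Ctrl against 720.2 and 718.0 RPKM in MYCN KD, so each MYCN KD sample was below each Ctrl sample, and it fell by 0.57 on the log2 scale (limma adjusted p = 0.00361). Markers of noradrenergic neuroblastoma cells were abundant, and the summed RPKM of 11 such genes was 3624 to 3932 in Ctrl and 5079 to 5501 in MYCN KD. Of these 11, 6 rose and 2 fell, against 25.3% and 22.8% of all 11411 genes tested, and 3 did not pass, and the count that fell was 0 without any 1 of the samples. PHOX2A, a transcription factor of sympathetic neurons, had a mean of 256 RPKM in Ctrl and 503 RPKM in MYCN KD. DBH, which makes noradrenaline, had 425 and 803 RPKM, and CHGB, a granule protein, had 365 and 570 RPKM. Blood markers summed to 1.57 to 1.80 RPKM over the 4 samples, nearly all of it CD14, and KRT5 and PRRX1, markers of epithelial and mesenchymal cells, were at 0 in each sample. The 5 epithelial markers summed to 1.02 to 1.07 RPKM in Ctrl and 1.97 to 2.04 RPKM in MYCN KD, and the 9 mesenchymal markers to 272 to 275 RPKM and 308 to 311 RPKM. THY1 alone had a mean of 212 RPKM in Ctrl and 250 RPKM in MYCN KD. Of the 5 mesenchymal markers tested, COL1A1, DCN and THY1 rose and 0 fell, against 25.3% and 22.8% of all genes tested. LUM and TWIST1 did not pass. COL1A1 was below 1 RPKM in both Ctrl samples and reached a mean of 1 RPKM, which the test needed, through MYCN KD. In limma on all 19908 genes above 0, 8 of the 9 markers were tested, and 4 rose and 0 fell. That fit called 3384 genes higher and 2594 lower. TWIST1 had a mean of 47.6 RPKM in Ctrl and was lower in both MYCN KD samples, with a mean of 40.6 RPKM. The part of these marker changes in the results was not tested. In bulk RNA, a change in the share of cells that express a gene and a change per cell cannot be told apart.

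Of the 10 genes, 7 had a mean level of at least 1 RPKM and were tested among 11411 genes with limma on log2(RPKM + 1), and a call needed a Benjamini-Hochberg adjusted p under 0.05. EGR1, JUND, FOS, IER2, JUN and NR4A1 rose in MYCN KD, JUNB did not pass the test, and 0 of the 7 fell. Of all genes tested, 25.3% were called higher and 22.8% were called lower, 48.1% in all. The median log2 fold change was 0.40 over the 7 genes and 0.03 over all genes tested. In each of the 6 genes that rose, the lower MYCN KD value exceeded the higher Ctrl value, a pattern found in 40.4% of all genes tested, and the reverse pattern was found in 35.8%. EGR1 changed most of the 7, and 1.67% of the tested genes had a larger log2 fold change, against 6.86% for JUND, 12.3% for FOS, 17.2% for IER2, 20.5% for JUN and 29.1% for NR4A1. These places are on the scale of log2(RPKM + 1), which understates the change of FOS at its low level. The ratio of the group means was 1.72 for FOS and 1.57 for JUND. FOSB, EGR2 and EGR3 lay below 1 RPKM and are described from their reads.

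With 2 samples against 2, an exact permutation test of a single gene cannot give a two-sided p below 0.3333, and each gene without overlap reaches that value. The limma p-values borrow the spread of all genes. The labels do not say that the replicates came from separate cultures, although the methods call them biological replicates, so these p-values may measure technical spread. The replicates of Ctrl and MYCN KD also deviated from their group means in mirror image (Pearson's r = -0.9845 across the 11411 tested genes, which are not independent), so the 4 samples hold less independent information on error than separate pairs would.

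**Figure D1:**
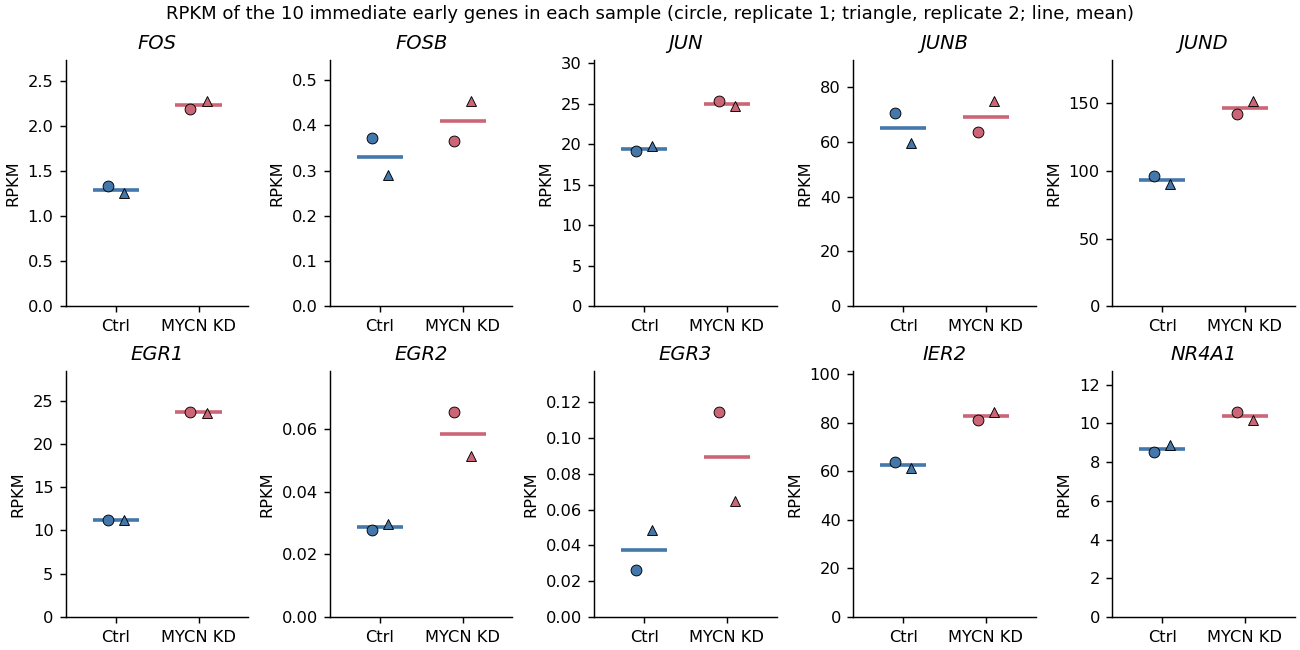
RPKM of each of the 10 genes (y axis, starting at 0, own scale per gene) in the Ctrl and MYCN KD samples (x axis). Circles are replicate 1, triangles replicate 2 and lines the group means. EGR1 stands at 11.2 against 23.6 RPKM on average with nearly coincident replicates, whereas the JUNB values of the groups interleave.

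The promoters of EGR1 and JUND, which rose most on the scale of log2(RPKM + 1), are shown. Those of FOS and JUN, the founding AP-1 pair, and of JUNB, the tested gene without a call, are added. Each sequence is the 250 bases before the RefSeq start of transcription (table build GRCh38.p14), read along the gene's own strand, and each matched GRCh37, the build of the files (hg19), exactly at 1 place on its chromosome. In GRCh37 the windows lie at chr5:137800918-137801167 (plus strand) for EGR1, chr19:18392433-18392682 (minus strand) for JUND, chr14:75745281-75745530 (plus strand) for FOS, chr1:59249720-59249969 (minus strand) for JUN and chr19:12902050-12902299 (plus strand) for JUNB. Capitals mark, on either strand, the cAMP response core TGACG, which CREB and ATF proteins bind, the AP-1 variant TGACATCA, and the CArG box, which SRF binds.
EGR1: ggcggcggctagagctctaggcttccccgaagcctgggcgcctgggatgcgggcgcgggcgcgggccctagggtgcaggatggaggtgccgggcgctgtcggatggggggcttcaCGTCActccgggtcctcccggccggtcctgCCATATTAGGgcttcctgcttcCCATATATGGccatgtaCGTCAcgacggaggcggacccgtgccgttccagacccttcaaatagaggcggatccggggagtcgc
JUND: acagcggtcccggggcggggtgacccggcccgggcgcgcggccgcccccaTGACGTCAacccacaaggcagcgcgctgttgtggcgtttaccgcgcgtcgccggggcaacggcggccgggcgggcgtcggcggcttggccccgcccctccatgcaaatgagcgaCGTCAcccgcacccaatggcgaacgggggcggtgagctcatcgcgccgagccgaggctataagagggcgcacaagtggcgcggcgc
FOS: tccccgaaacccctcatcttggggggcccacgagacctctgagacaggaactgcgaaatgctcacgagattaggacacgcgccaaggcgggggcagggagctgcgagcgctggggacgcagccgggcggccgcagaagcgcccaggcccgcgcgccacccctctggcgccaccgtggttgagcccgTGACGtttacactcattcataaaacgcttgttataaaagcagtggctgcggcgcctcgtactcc
JUN: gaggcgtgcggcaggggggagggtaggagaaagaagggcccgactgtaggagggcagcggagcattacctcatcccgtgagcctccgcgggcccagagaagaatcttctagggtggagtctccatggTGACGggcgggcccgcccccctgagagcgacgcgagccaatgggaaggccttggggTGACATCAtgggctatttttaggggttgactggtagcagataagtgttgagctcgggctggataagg
JUNB: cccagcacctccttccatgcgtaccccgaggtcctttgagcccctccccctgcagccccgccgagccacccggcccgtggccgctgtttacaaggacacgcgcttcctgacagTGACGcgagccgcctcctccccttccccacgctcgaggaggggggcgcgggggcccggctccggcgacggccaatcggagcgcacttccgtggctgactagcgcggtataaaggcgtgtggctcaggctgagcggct

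The core TGACG was found in each of the 7 genes that have 1 RefSeq start in the table, namely EGR1, FOS, FOSB, IER2, JUN, JUNB and JUND, and in 21.2% of 35116 promoter windows of the same length. These 7 include JUNB, which did not pass the test, and FOSB, which was not tested, but not NR4A1, which rose and has several starts. The windows were counted per start, so a gene with several starts adds several windows, unlike these 7 genes. The shares of windows are therefore not shares of genes. EGR1 is the member of these 7 with CArG boxes, 2 of them, which begin 105 and 83 bases before the start. A CArG box was found in 1.16% of all windows. EGR1 also holds a site for EGR proteins themselves, GCGNGGGCG, found in 8.41% of windows. JUND holds the full cAMP response element TGACGTCA, which contains the core on both strands and was found in 1.65% of windows. JUN holds TGACATCA, which begins 67 bases before its start and was found in 2.37% of windows. Neither the AP-1 site TGANTCA (6.57% of windows) nor the E-box CACGTG that MYC proteins bind (6.34% of windows) was found in the 7 windows. EGR2, like NR4A1, has several starts, and both were left out of these counts. Among the windows of the 3 EGR2 starts, an E-box CACGTG began 30 bases and a CArG box 71 bases before a start. The core TGACG was found there too. A match is a description of the letters, and elements outside the window are not seen.

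EGR1 encodes the best studied EGR factor and occupies bases 137801168 to 137804992 of chromosome 5 (GRCh37, plus strand), where its canonical transcript has 2 exons. Its RPKM was 11.2 in both Ctrl samples and 23.7 and 23.5 in the MYCN KD samples. The groups were far apart relative to the replicates, which nearly coincided. The replicates differed by a ratio of 1.01 in each group, a small difference beside the counting interval of a single sample. For the 1195 reads of Ctrl replicate 1, the exact 95% counting interval runs from 1128 to 1265 reads. The SDs and the standard error below may therefore understate the spread between samples. The means were 11.2 ± 0.0551 RPKM (SD, n = 2) and 23.6 ± 0.126 RPKM (SD, n = 2), a ratio of 2.11. On the log2 scale EGR1 rose by 1.01 (standard error 0.035, limma adjusted p = 0.00359). The gene holds 1195 and 1127 reads in Ctrl against 2161 and 2284 reads in MYCN KD, and the ratio of reads per total was 2.11 with an exact 95% counting interval from 2.01 to 2.22. Such intervals cover counting error only, since the reads had been normalized before deposit.

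EGR2 and EGR3, the relatives of EGR1 known from myelinating glia and from muscle spindles and lymphocytes, were close to the limit of detection. EGR2 had 3 reads in each Ctrl sample and 6 and 5 reads in the MYCN KD samples. EGR3 had 4 and 7 reads in Ctrl against 15 and 9 reads in MYCN KD. Both genes were higher in both MYCN KD samples, as was EGR1, but on very few reads. The ratio of reads per total was 2.02 for EGR2, with an exact 95% counting interval from 0.685 to 6.65, and 2.40 for EGR3, with an interval from 1.13 to 5.44. In limma voom on the recovered reads of all genes above 0, the adjusted p was 0.0687 for EGR2 and 0.144 for EGR3, so neither passed the threshold. EGR4, the remaining EGR gene, had 2 reads in each of the 4 samples.

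**Figure D2:**
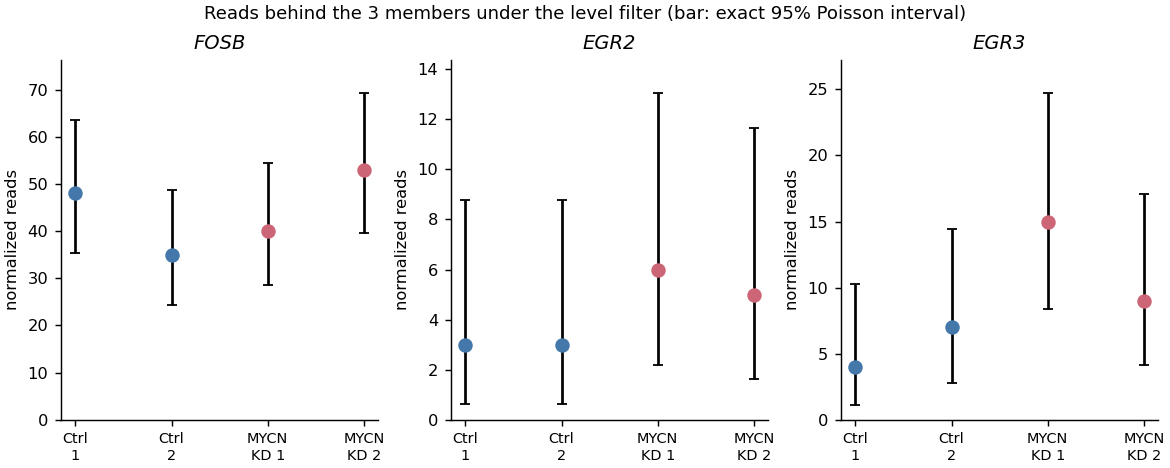
Normalized reads (y axis, starting at 0) behind FOSB, EGR2 and EGR3 in each sample (x axis; blue, Ctrl; red, MYCN KD), with exact 95% Poisson intervals as bars. The intervals of the groups overlap for each of the 3 genes, with 3 to 6 reads for EGR2, 4 to 15 for EGR3 and 35 to 53 for FOSB.

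Of the NAB corepressors, NAB2 passed the test and NAB1 did not. NAB2, itself known as an EGR1 target, had 18.7 and 18.3 RPKM in Ctrl against 26.0 and 26.6 RPKM in MYCN KD. It rose by 0.48 on the log2 scale (standard error 0.038, limma adjusted p = 0.00529). NAB1 had 7.07 and 8.22 RPKM in Ctrl against 8.94 and 7.74 RPKM in MYCN KD, with overlapping groups (limma adjusted p = 0.438). The ratio of EGR1 to NAB2 RPKM was 0.595 and 0.613 in Ctrl against 0.911 and 0.885 in MYCN KD, so that EGR1 gained on its corepressor in both MYCN KD samples. WT1, a zinc finger factor with EGR-like fingers, fell from 4.38 ± 0.138 RPKM to 2.43 ± 0.0652 RPKM (SD, n = 2 each), a log2 difference of -0.65 (limma adjusted p = 0.00462).

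The JUN family supplied most of the AP-1 transcripts, and of its members JUND and JUN rose while JUNB did not pass the test. JUND, the JUN gene whose expression depends least on stimulation, occupies bases 18390504 to 18392432 of chromosome 19 (GRCh37, minus strand) and has 1 exon. It had 96.6 and 90.3 RPKM in Ctrl against 142 and 152 RPKM in MYCN KD. Both MYCN KD values were well above both Ctrl values. JUND rose by 0.65 on the log2 scale (standard error 0.059, limma adjusted p = 0.00654), a ratio of 1.57. It was the most abundant of the 10 genes in each group.

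JUN, the partner that most readily forms AP-1 with FOS, occupies bases 59242517 to 59249720 of chromosome 1 (GRCh37, minus strand) and has 1 exon. Its RPKM was 19.2 and 19.7 in Ctrl against 25.3 and 24.7 in MYCN KD, without overlap. It rose by 0.35 on the log2 scale (standard error 0.039, limma adjusted p = 0.00904), a ratio of 1.28. With the replicate number as a block JUN did not pass (adjusted p = 0.0682).

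JUNB, which can act against JUN at some promoters, occupies bases 12902300 to 12904129 of chromosome 19 (GRCh37, plus strand) and has 1 exon. Its RPKM was 70.5 and 59.6 in Ctrl against 63.6 and 74.8 in MYCN KD. The values interleave, and the replicates of a group differed by a ratio of 1.18 in Ctrl and in MYCN KD, which is more than the ratio of 1.06 between the group means. The log2 difference was 0.088 (standard error 0.13, limma adjusted p = 0.606). It was -0.031 without Ctrl replicate 2 and -0.028 without MYCN KD replicate 2, and up to 0.21 with another sample left out. Counting error does not set this limit, because JUNB had 3354 to 4371 reads per sample.

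Within the JUN family, the share of JUND was higher and the share of JUNB lower in both MYCN KD samples. JUND was 51.8% and 53.2% of the summed JUN, JUNB and JUND RPKM in Ctrl against 61.5% and 60.4% in MYCN KD. JUNB was 37.8% and 35.1% in Ctrl against 27.5% and 29.8% in MYCN KD. The share of JUN overlapped between the groups, with 10.3% and 11.6% in Ctrl against 11.0% and 9.84% in MYCN KD. The ratio of JUND to JUNB was 1.37 and 1.51 in Ctrl against 2.24 and 2.03 in MYCN KD. These shares are values of 2 samples per group and were not tested. The summed RPKM of the JUN family was 186 and 170 in Ctrl against 231 and 251 in MYCN KD.

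**Figure D3:**
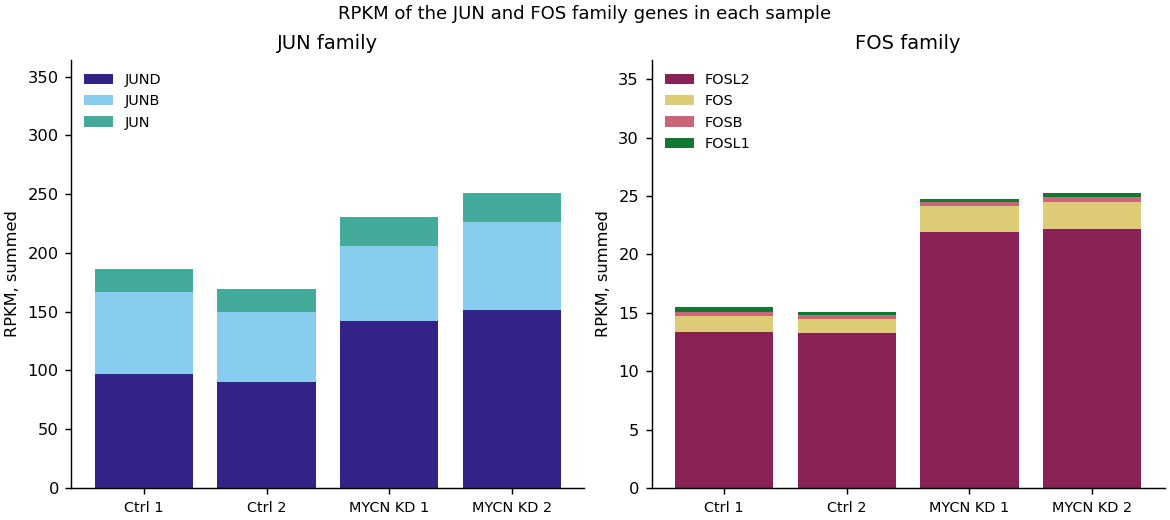
Stacked RPKM (y axis, starting at 0, with separate scales) of the JUN family genes on the left and the FOS family genes on the right in each of the 4 samples (x axis). JUND and FOSL2 make up most of their family in each sample and grow most in RPKM in MYCN KD.

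The FOS family was far less abundant. FOS occupies bases 75745529 to 75748933 of chromosome 14 (GRCh37, plus strand) and has 4 exons. Its RPKM was 1.33 and 1.26 in Ctrl against 2.18 and 2.28 in MYCN KD, from 98 and 87 reads in Ctrl against 137 and 152 reads in MYCN KD. Both MYCN KD values lay above both Ctrl values. FOS rose by 0.49 on the scale of log2(RPKM + 1) (standard error 0.042, limma adjusted p = 0.00601). This scale understates the change of a gene with so low a level, and limma voom on the recovered reads gave a log2 fold change of 0.78 (adjusted p = 0.00553). The ratio of reads per total was 1.72, with an exact 95% counting interval from 1.43 to 2.08.

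FOSB, the closest relative of FOS, occupies bases 45971253 to 45978437 of chromosome 19 (GRCh37, plus strand). It had 48 and 35 reads in Ctrl against 40 and 53 reads in MYCN KD, or 0.372 and 0.290 RPKM against 0.365 and 0.454 RPKM. The groups overlap, and the ratio of reads per total was 1.23 with an exact 95% counting interval from 0.909 to 1.68. In limma voom on the recovered reads without a filter the adjusted p was 0.311. A change was therefore not detectable at this depth.

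FOSL2, a FOS relative that lacks the activation domain of FOS, was the main FOS family transcript at 86.2% to 88.6% of the summed FOS, FOSB, FOSL1 and FOSL2 RPKM over the 4 samples. It had 13.4 and 13.2 RPKM in Ctrl against 22.0 and 22.2 RPKM in MYCN KD, and rose by 0.69 on the log2 scale (standard error 0.036, limma adjusted p = 0.00365). FOSL1 had 26 and 18 reads in Ctrl against 14 and 20 reads in MYCN KD. The share of FOS in the family was 8.34% to 9.01% in all samples, so FOS and FOSL2 were higher in similar proportion in MYCN KD. The ratio of JUN family to FOS family RPKM was 12.0 and 11.2 in Ctrl against 9.32 and 9.93 in MYCN KD, so the JUN family was in excess over the FOS family in each sample.

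The wider AP-1 family was described from 9 further genes, of which 5 were tested. Of these, ATF3, FOSL2 and ATF7 rose and 0 fell, against 25.3% higher and 22.8% lower over all genes tested. The median log2 fold change of the 5 was 0.69. ATF3, a stress-induced repressor and JUN partner, had 5.94 and 6.00 RPKM in Ctrl against 12.3 and 12.2 RPKM in MYCN KD, a log2 difference of 0.93 (standard error 0.038, limma adjusted p = 0.00359). ATF7, a relative of ATF2, had 8.19 and 8.33 RPKM in Ctrl against 14.0 and 13.8 RPKM in MYCN KD, a log2 difference of 0.69 (limma adjusted p = 0.00394). The other two, ATF2 and BATF3, did not pass the test. JDP2, a repressor that pairs with JUN, lay below 1 RPKM with 0.870 to 0.877 RPKM in the 4 samples.

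**Figure D4:**
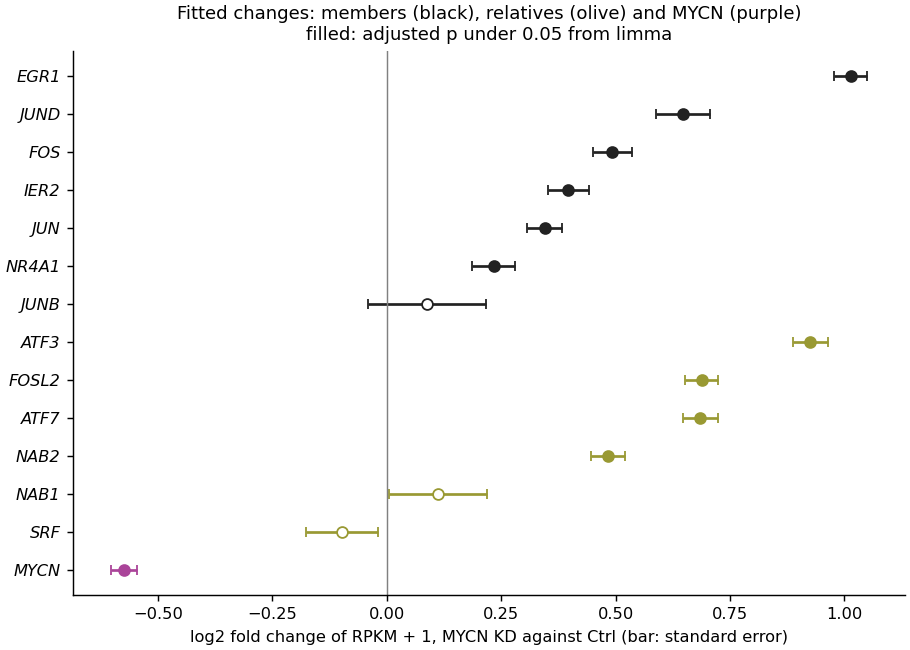
Log2 fold change of RPKM + 1 in MYCN KD against Ctrl (x axis) with its standard error as bars for the 7 tested genes (black), their relatives and regulators (olive) and MYCN (purple). Filled points passed an adjusted p of 0.05 from limma. EGR1 lies at 1.01, ATF3 at 0.93 and MYCN at -0.57, and JUNB, NAB1 and SRF are open.

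IER2 occupies bases 13261225 to 13265725 of chromosome 19 (GRCh37, plus strand), on the same chromosome as JUNB, JUND and FOSB, and has 2 exons. Its RPKM was 64.0 and 61.2 in Ctrl against 81.0 and 84.5 in MYCN KD, without overlap. IER2 rose by 0.40 on the log2 scale (standard error 0.045, limma adjusted p = 0.00907), a ratio of 1.32. In Ctrl its level could not be separated from that of JUNB, whereas in MYCN KD it lay above both JUNB values.

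NR4A1 occupies bases 52416616 to 52453291 of chromosome 12 (GRCh37, plus strand) and has 7 exons. Its RPKM was 8.51 and 8.88 in Ctrl against 10.6 and 10.2 in MYCN KD. The groups did not overlap, and the log2 fold change of 0.23 was the smallest of the 6 genes that rose (standard error 0.047, limma adjusted p = 0.0284). Without any 1 of the 4 samples NR4A1 no longer passed, with an adjusted p from 0.130 to 0.272 and a log2 fold change from 0.21 to 0.26. Its relatives were lower in level. NR4A3, a receptor of the same family, had 48 and 40 reads in Ctrl against 85 and 102 reads in MYCN KD. NR4A2, which in neurons supports dopaminergic identity, had 71 and 62 reads in Ctrl against 47 and 53 reads in MYCN KD. Both lay below 1 RPKM and were left out of the main test, and NR4A3 was higher and NR4A2 lower in both MYCN KD samples. In limma without a filter, EGR4, WT1, NR4A2, NR4A3, NAB1 and NAB2 were all tested, and 2 of these 6 rose and 1 fell. That fit called 3384 genes higher and 2594 lower among 19908. With the filter, 3 of the 6 were tested, and 1 rose and 1 fell.

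Ordered by mean RPKM over the 4 samples, the genes were JUND, IER2, JUNB, JUN, EGR1, NR4A1, FOS, FOSB, EGR3 and EGR2. IER2 and JUNB overlapped in Ctrl, and EGR3 and EGR2 overlapped in both groups. The other neighbours in that order did not overlap within a group. JUN was 1.74 times EGR1 in Ctrl and 1.06 times EGR1 in MYCN KD, so EGR1 reached nearly the level of JUN in MYCN KD. The summed RPKM of the 10 genes was 272 and 253 in Ctrl against 349 and 372 in MYCN KD, and most of it came from JUND, IER2 and JUNB.

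A list of 39 symbols of other immediate early genes, 2 of them newer names of genes already on it, matched 37 genes, of which 29 were tested. Of the 29, 10 rose (34.5%, against 25.3% of all genes tested), 4 fell (13.8%, against 22.8%) and 15 did not pass. The median log2 fold change of the 29 was 0.20. KLF2, a zinc finger factor, rose from 16.1 ± 1.29 RPKM to 39.0 ± 2.98 RPKM (SD, n = 2 each), a log2 difference of 1.22 (limma adjusted p = 0.00485). SGK1, a serum-induced kinase, had 21.5 and 22.9 RPKM in Ctrl against 36.5 and 34.4 RPKM in MYCN KD and rose by 0.65 on the log2 scale (limma adjusted p = 0.00604). HES1, a repressor downstream of Notch, fell from 11.2 ± 0.754 RPKM to 6.68 ± 0.445 RPKM (SD, n = 2 each), a log2 difference of -0.67 (limma adjusted p = 0.00907). The classical early genes thus moved in both directions, and those that passed in either direction include both transcription factors and signalling proteins. ARC, DUSP1 and NFKBIA, named here after their values were seen, had log2 fold changes of -0.06, 0.09 and 0.03 and did not pass.

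**Figure D5:**
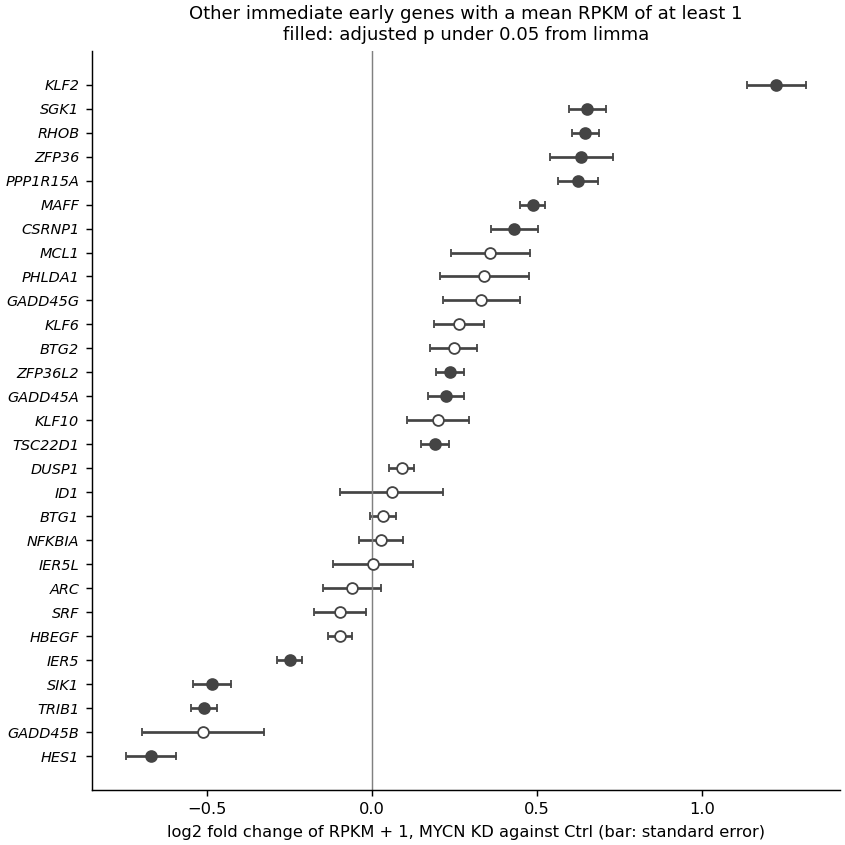
Log2 fold change of RPKM + 1 in MYCN KD against Ctrl (x axis) with its standard error for the 29 tested genes of the wider immediate early list (y axis, ordered by change). Filled points passed an adjusted p of 0.05 from limma: 10 lie to the right and 4 to the left, from HES1 at -0.67 to KLF2 at 1.22.

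The factors that carry signals to these promoters mostly did not pass the test. Of 14 tested genes for SRF, its ELK and MKL partners, CREB and their coactivators, a list that shares SRF with the previous one, 1 rose, 2 fell and 11 did not pass (25.3% and 22.8% of all genes tested), and their median log2 fold change was 0.04. SRF had 23.2 and 21.1 RPKM in Ctrl against 19.6 and 21.6 RPKM in MYCN KD, with overlapping groups (log2 fold change -0.10, limma adjusted p = 0.364). MKL1, an actin-regulated coactivator of SRF, rose from 17.6 ± 0.661 RPKM to 24.2 ± 0.881 RPKM (SD, n = 2 each; log2 fold change 0.44, limma adjusted p = 0.00969). ELK1, which joins SRF at CArG boxes when phosphorylated by MAP kinases, fell from 27.7 ± 1.36 RPKM to 21.6 ± 1.04 RPKM (SD, n = 2 each; log2 fold change -0.34, limma adjusted p = 0.0222). CREBBP, a coactivator of CREB, fell from 16.5 ± 0.983 RPKM to 13.1 ± 0.771 RPKM (SD, n = 2 each; log2 fold change -0.30, limma adjusted p = 0.0382). ELK1 and CREBBP, the 2 that fell, lost the call without Ctrl replicate 1 (adjusted p = 0.0560 and 0.142) and without MYCN KD replicate 1 (adjusted p = 0.0621 and 0.150).

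Among 18 tested genes of the MAP kinase routes, 6 rose (33.3%, against 25.3% of all genes tested), 2 fell (11.1%, against 22.8%) and 10 did not pass, with a median log2 fold change of 0.06. With the replicate number as a block, 3 of the 18 rose. MAPK11, a p38 kinase, had 3.13 and 2.98 RPKM in Ctrl against 11.2 and 11.7 RPKM in MYCN KD, a log2 difference of 1.61 (standard error 0.048, limma adjusted p = 0.00359). MAP2K3, which activates p38 kinases, moved the other way, from 11.4 and 10.1 RPKM to 6.34 and 7.17 RPKM, and fell by 0.60 on the log2 scale (limma adjusted p = 0.0172). MAPK3, which encodes ERK1, rose from 39.0 ± 2.33 RPKM to 56.0 ± 3.23 RPKM (SD, n = 2 each; log2 fold change 0.51, limma adjusted p = 0.0130). These are transcript levels, and no measure of kinase activity was analysed here.

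Of 15 listed genes with well known AP-1 sites, 7 were tested and 8 lay below 1 RPKM. Of the 7, 6 rose (85.7%, against 25.3% of all genes tested) and 0 fell, with a median log2 fold change of 0.50. With the replicate number as a block, 4 of the 7 rose, and with limma voom on the recovered reads all 7 rose. PLAUR, 1 of the 6, was below 1 RPKM in both Ctrl samples and reached the filter through MYCN KD. In limma without a filter, 13 genes of this list were tested, and 6 rose and 0 fell. That fit called 3384 genes higher and 2594 lower among 19908. TGFB1, a growth factor, had 60.3 and 50.8 RPKM in Ctrl against 110 and 130 RPKM in MYCN KD, a log2 difference of 1.101 (limma adjusted p = 0.0102). HMOX1, the stress-induced heme oxygenase, had 9.04 and 8.63 RPKM in Ctrl against 17.9 and 18.7 RPKM in MYCN KD, a log2 difference of 0.97 (limma adjusted p = 0.00361). VIM, the intermediate filament vimentin, had 154 and 159 RPKM in Ctrl against 235 and 227 RPKM in MYCN KD, a log2 difference of 0.56 (limma adjusted p = 0.00468). CCND1, a cell cycle gene that drives entry into S phase, was the remaining gene and did not pass (limma adjusted p = 0.0506). IL6 and MMP3 were at 0 in each sample, and CXCL8 and MMP1 were at 0 in both Ctrl samples and below 0.03 RPKM in MYCN KD.

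Heat shock genes, some of which respond quickly to handling and stress, were taken as a comparison. Of 10 tested, 1 rose and 5 fell, against 25.3% and 22.8% of all genes tested, and 4 did not pass, with a median log2 fold change of -0.44. HSP90AB1, a cytosolic chaperone, fell from 968 ± 16.6 RPKM to 604 ± 9.24 RPKM (SD, n = 2 each; log2 fold change -0.68, limma adjusted p = 0.00359). HSPD1, a mitochondrial chaperone, fell from 283 ± 32.6 RPKM to 159 ± 17.4 RPKM (SD, n = 2 each; log2 fold change -0.83, limma adjusted p = 0.0159). HSPB1, a small heat shock protein, rose from 247 ± 16.1 RPKM to 489 ± 30.6 RPKM (SD, n = 2 each; log2 fold change 0.99, limma adjusted p = 0.00515). HSP90AA1, DNAJA1, DNAJB1 and BAG3 did not pass, with log2 fold changes of -0.36, -0.20, -0.10 and -0.02. HSPA1A and HSPA1B lay below 1 RPKM and were not tested. Their RPKM was scaled to lengths of 12145 and 12601 bases, as recovered from the values. These lengths were not checked against the transcripts, so a low level of these 2 genes is not established. The counts of this list are therefore no measure of a stress response.

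The tested genes whose profile over the 4 samples was most like that of EGR1, by the Euclidean distance of log2(RPKM + 1) centred on each gene's mean, were CYB561 (distance 0.00546), CAMSAP3 (0.0103) and DUSP8 (0.0171). For JUN they were PAK1 (0.00499), TTC28 (0.00516) and RNF34 (0.00561), and for FOS they were ACAD10 (0.00289), FAM222B (0.00725) and MAVS (0.00985). Over 4 samples in 2 groups such likeness mostly restates the size of the difference between the groups, and 0 of these 9 genes is on an immediate early list used here.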

How the data were processed

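RNA of 4 BE(2)C samples, 2 Ctrl and 2 MYCN KD, grouped by the sample labels, was analysed. Mapping to hg19 (HISAT2 2.1.0), counting over RefSeq genes (featureCounts), modelling (DESeq2) and correction for unwanted variation (RUVSeq) were done by the authors, who deposited RPKM of the normalized counts. The variant of RUVSeq and the number of factors are not given in the sources used here.

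From these values, whole reads were recovered with the known lengths of microRNA genes, and all 19908 genes above 0 gave whole reads. Of the microRNA genes used, 94.8% to 96.4% came out within 0.01 of a whole read. Totals were 29055819 to 34142988 reads. The fit used limma 3.58.1 (R 4.3.3) on log2(RPKM + 1) of all genes whose mean RPKM reached 1, with eBayes and a trend, no block, Benjamini-Hochberg adjustment and a threshold of 0.05, and was tested on simulated data, where the share of false calls was above the nominal one, so the adjusted p-values may be too small. Counting intervals are exact at 95%. Symbols altered to dates (28 rows) were not named.

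The members and lists were chosen with earlier results of these data known. Named were the members, MYCN, 10 relatives and regulators, the 3 genes of each list with the largest called change without overlap, and the 3 profiles nearest to FOS, JUN and EGR1. ATF2, BATF3, CCND1, PLAUR, TWIST1 and LUM were named after their values were seen. So were the heat shock genes without a call and genes at or near 0. Alternatives were pseudocount, filter, scaling, trend, block, each sample left out and limma voom on reads. Sequences came from RefSeq. The promoters of the chromosome that holds EGR3 were left out, also from the count over all windows, and the other 9 of the 10 members matched. Gene positions came from GENCODE release 44 lifted to GRCh37. Figures were drawn with matplotlib 3.10.9.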

Additional observations from a re-analysis of the deposited data

How the results depend on the processing

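EGR1, JUND and IER2 kept their direction and their call under each of 12 listed alternatives, and FOS under the 11 in which it was tested, since a mean RPKM of at least 5 left it out. Their log2 fold changes lay up to 1.08 for EGR1, from 0.60 to 0.73 for JUND, 0.37 to 0.46 for IER2 and 0.38 to 0.78 for FOS. From 4 to 6 of the 10 genes were called higher. With a sample left out, the lone sample of a group is assumed to vary like the others, and the log2 fold change was from 0.21 to 0.26 for NR4A1, no longer past the threshold, and from -0.031 to 0.21 for JUNB, which changed sign without Ctrl replicate 2 (-0.031) and without MYCN KD replicate 2 (-0.028). A mean RPKM of at least 5 left 1868 genes higher, against 2890, with fewer genes tested.

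Same-numbered samples deviated in opposite directions (r = -0.9845). These values had been corrected for unwanted variation before deposit, so whether the replicate numbers paired the cultures cannot be told from them. With the replicate block, JUN (0.35, adjusted p = 0.0682, against 0.00726 to 0.0406 under the others listed) and NR4A1 (0.23, adjusted p = 0.295, against 0.0246 to 0.272) lost the threshold, and the block changed no other call among the 10 genes. When the numbers were crossed between the groups in the block, a choice made after the data were seen, 5910 genes were higher and 5262 lower, against 2599 lower, and JUNB passed at 0.088. The cause of these changes was not tested. Depth limits FOSB, EGR2 and EGR3.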
